A study of Homo sapiens with 16 samples.

Results

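The AFN700 response was described in the 3 lines of the series that carry Epstein-Barr virus (EBV), GRANTA-519, JVM-2 and JVM-13. They were chosen by line, from the known origin of each, and give 6 of the 16 arrays and 3 of the 8 lines. AFN700 inhibits IKKbeta, the kinase that marks the NF-kB inhibitor IkB for destruction. Each line was kept for 20 hours in fresh medium, in 3 ml, with 5 uM AFN700 or with 0.025% DMSO, its solvent. GRANTA-519 grew in DMEM and JVM-2 and JVM-13 in RPMI, each with 10% fetal bovine serum, so the medium differs between GRANTA-519 and the others. The labels call all 3 lines insensitive to "stn" and ibrutinib. Each line gave 1 array per treatment. Lines therefore serve as replicates, and a single line has no error of its own. For JVM-13 the title of the treated sample says AFN700 and its treatment and description fields say AFN701, and JVM-13 is therefore reported apart from the pair GRANTA-519 and JVM-2. The question was how transcript levels respond when IKKbeta is inhibited. Nothing in the labels says that arrays came from separate cultures beyond the line, so every p-value below measures the spread between lines.

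EBV drives B-cell growth through a small set of latent proteins. One of them, LMP1, acts like a constantly engaged CD40 receptor and switches on NF-kB, which in turn raises adhesion molecules, chemokines, costimulatory receptors and survival genes. IkB-alpha, A20 and other targets feed back on the pathway. JVM-2 and JVM-13 came from B-cell prolymphocytic leukaemia and were established with EBV, while GRANTA-519 came from a leukaemic mantle cell lymphoma. All 3 are single established lines, cultured without other cells, and EBV genes are not analysed here.

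The 6 arrays carried B-cell RNA. Of the 8 B-cell markers, 7 were measured and none lay under an intensity of 50 on any of the 6 arrays. MS4A1, which encodes CD20, stood between 3410.0 and 5321.5. The 4 markers for the mantle cell lymphoma label were mixed. In GRANTA-519 CCND1, the cyclin D1 gene placed under an immunoglobulin enhancer in this lymphoma, stood at 2328.5 with DMSO, and the transcription factor gene SOX11 at 1812.8. In JVM-2 CCND1 was 78.7 and SOX11 0.1, and in JVM-13 they were 4.8 and 1.4. CD5, usually present in this lymphoma, was at 7.0 or less on all 6 arrays, and FCER2, which encodes CD23 and is usually absent from it, was 628.5 with DMSO in GRANTA-519, 122.4 in JVM-2 and 446.7 in JVM-13. T-cell markers summed to between 66.5 and 369.6 over 9 genes on the 6 arrays, and myeloid markers to between 72.8 and 277.9 over 8. Of the 10 fibroblast and epithelial markers, at most 2 reached 50 on any of these arrays, and COL1A1 was the brightest of them in GRANTA-519. Each probe set intensity was taken to log2(intensity + 3.3). On this scale the DMSO array of JVM-13 had a median level of 7.25 over the 12314 genes tested, against 7.81 to 8.02 on the other 15 arrays. Its AFN700 array had a median of 7.91. Over all probe sets the order was the other way. There the median intensity was 11.7 on the JVM-13 DMSO array and 9.5 on its AFN700 array, the lowest of all arrays. The low DMSO median is thus one of the genes tested, not of the whole array. The actin 3'/5' ratio, a measure of RNA integrity in which a higher value means less full-length RNA, was 2.78 and 2.72 on the DMSO and AFN700 arrays of GRANTA-519, 2.12 and 2.09 in JVM-2, and 2.01 and 3.43 in JVM-13. Across genes, the AFN700 and DMSO arrays correlated with r = 0.971 in GRANTA-519, 0.990 in JVM-2 and 0.924 in JVM-13. The JVM-13 AFN700 array correlated with the JVM-2 DMSO array at 0.905, and the JVM-13 DMSO array at 0.850. With the JVM-2 AFN700 array the values were 0.899 and 0.852. The JVM-13 AFN700 array was thus the closer to both JVM-2 arrays, whichever their treatment. These r values share genes and platform and are descriptions.

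**Figure D1:**
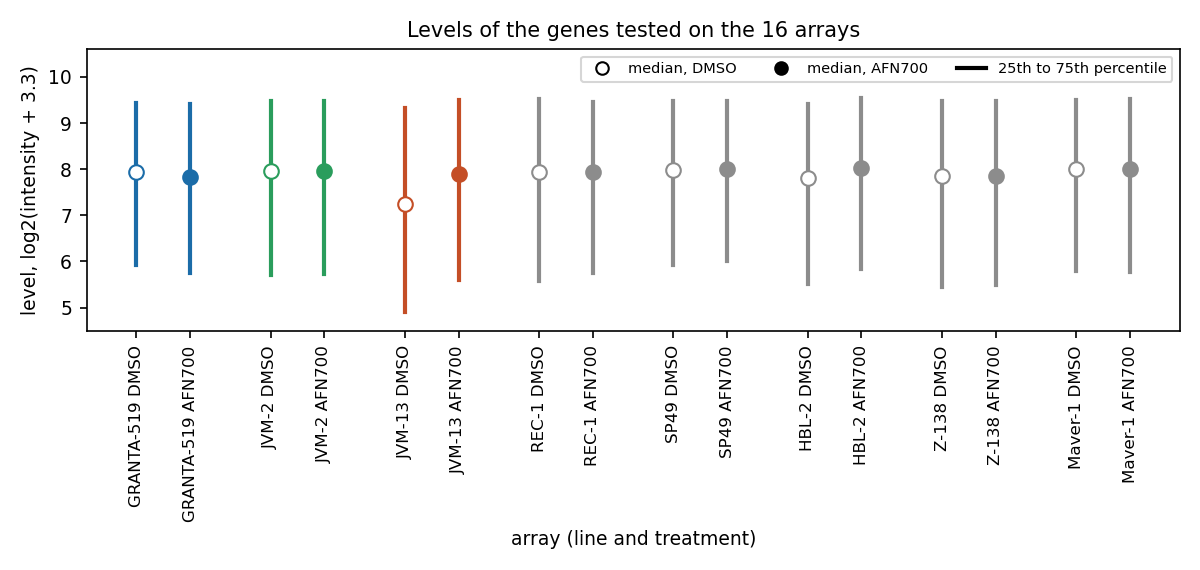
Median level (points) and 25th to 75th percentile (bars) of log2(intensity + 3.3) over the 12314 genes tested, for each of the 16 arrays, with the EBV-positive lines in colour. The median of the JVM-13 DMSO array, 7.25, lies under that of the other 15 arrays, 7.81 to 8.02.

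GRANTA-519 moved much further than JVM-2. In GRANTA-519, 748 genes (6.07% of those tested) were at least 2-fold lower with AFN700 and 256 (2.08%) at least 2-fold higher. In JVM-2 the counts were 133 (1.08%) and 115 (0.934%). There were 34 genes (0.276%) were at least 2-fold lower in both lines and 9 (0.0731%) at least 2-fold higher in both lines. These counts describe pairs of arrays and have no test. The pair was then tested with limma on all 16 arrays, with the cell line as a block. The spread of each gene was shared by the pair and the 5 other lines, and JVM-13, with a term of its own, added nothing to it. Each SE of a pair difference therefore rests on the other lines too and is not the spread of the 2 lines alone. Of 12314 genes, 2 (0.0162%) passed an adjusted p of 0.05, both lower. Before adjustment 824 genes had a p under 0.05, of which 588 were lower and 236 higher with AFN700.

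The clearest change was in TNFAIP6, which encodes a secreted hyaluronan-binding protein induced by TNF and interleukin 1. Its intensity went from 148.3 with DMSO to 5.9 with AFN700 in GRANTA-519 and from 61.1 to 4.0 in JVM-2. Both treated arrays thus lay far under both DMSO arrays. The log2 difference over the pair was -3.59 ± 0.38 (n = 2 lines, SE from the shared spread), limma adjusted p = 0.00349. On the arrays of the 5 other lines TNFAIP6 lay between 0.2 and 4.6, so its SE draws on values near the floor. Both treated values lay near background, so the size depends on the pseudocount, with -2.43 at 16 and -4.04 at 1. TNFAIP6 passed the filter on low values through the arrays where it was high, and was not tested when the filter asked for 4 arrays. TNFRSF9, a costimulatory receptor of the TNF receptor family, fell as well, from 16.5 to 0.6 in GRANTA-519 and from 80.3 to 13.3 in JVM-2. Its log2 difference was -2.34 ± 0.32 (n = 2 lines, SE from the shared spread), limma adjusted p = 0.038. In the other lines TNFRSF9 was at 1.3 or less on every array except those of SP49. Like TNFAIP6, TNFRSF9 passed the filter on low values through the arrays where it was high. It too was not tested when the filter asked for 4 arrays. TNFRSF9 was dim in GRANTA-519, and its adjusted p passed 0.05 in some settings only. It was 0.0696 with arrays centred on their medians and 0.0685 after quantile normalization. In limma on the arrays of these 2 lines alone it was 0.189, against 0.0176 for TNFAIP6. Neither gene passed with a pseudocount of 1, where the adjusted p was 0.0834 for TNFAIP6 and 0.164 for TNFRSF9. Without GRANTA-519 no gene passed, and TNFAIP6 had an adjusted p of 0.33. Without JVM-2, leaving GRANTA-519 as the only line of the pair, 7 genes passed.

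Among genes with an intensity of at least 50 in the brighter array of each line, 12 were at least 2-fold lower in both GRANTA-519 and JVM-2. Besides TNFAIP6 these were VDR, C3, COL1A1, FABP6, OXTR, VCAM1, CLIC2, CR2, TUBB2A, HIP1 and PRRT3, and none of these 11 passed the adjusted threshold. VCAM1, the endothelial-type adhesion molecule that binds integrin VLA-4 and a classical NF-kB target, went from 98.7 to 4.0 in GRANTA-519 and from 418.4 to 174.4 in JVM-2. Its log2 difference was -2.53 ± 0.51 (SE), adjusted p = 0.193. VDR, the vitamin D receptor, went from 260.5 to 63.4 and from 134.6 to 25, and OXTR, the oxytocin receptor, from 151.8 to 20.5 and from 299.8 to 123.8. In all 3 genes the AFN700 array was the lower of each line, by which the genes of this group were chosen. CR2, the complement receptor through which EBV enters B cells, went from 275.5 to 108.0 and from 96.6 to 40.1. C3, the central complement component, went from 63.3 to 16.1 and from 119.4 to 36.4. Their adjusted p values were 0.704 for CR2 and 0.169 for C3. COL1A1, a collagen chain, went from 613.9 to 122.2 and from 184.8 to 65.8, and the tubulin gene TUBB2A from 210.5 to 95.9 and from 155.7 to 36.6. The other genes of this group, the bile acid binding protein FABP6, the chloride channel family gene CLIC2, the endocytic adaptor HIP1 and PRRT3, had pair differences between -1.08 and -1.37. The 3 probe sets of HIP1 ran from -1.049 to -0.054 in GRANTA-519 and from -1.111 to 0.135 in JVM-2. In JVM-13 they disagreed, from -1.09 to 1.222.

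**Figure D2:**
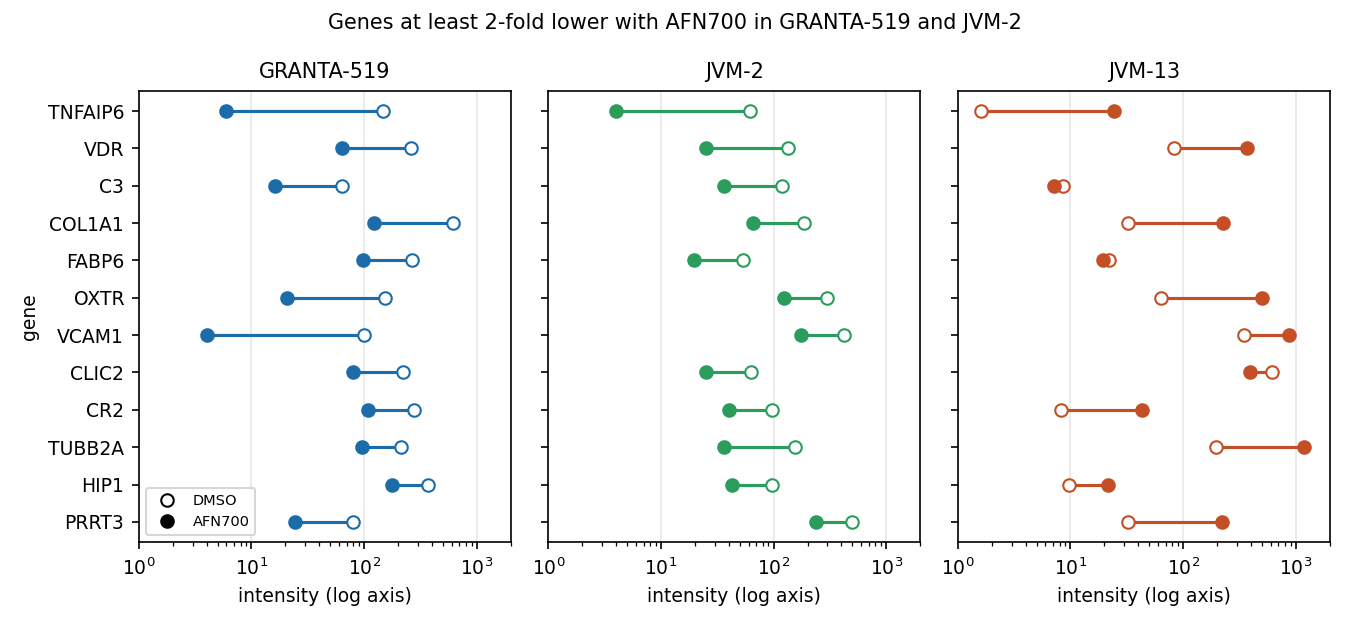
Intensity (log axis) with DMSO (open points) and AFN700 (filled points) of the 12 genes at least 2-fold lower in both GRANTA-519 and JVM-2, in each of the 3 EBV-positive lines. In GRANTA-519 and JVM-2 every filled point lies left of its open point, by which the genes were chosen, while in JVM-13 the filled points of 9 genes lie to the right.

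In the other direction RAB38, a small GTPase of lysosome-related organelles, was the one gene of this brightness at least 2-fold higher in both lines. It went from 69.7 to 247.0 in GRANTA-519 and from 140.0 to 313.5 in JVM-2, a log2 difference of 1.46 ± 0.28 (SE), adjusted p = 0.17. The next by size were CNOT3, a subunit of the deadenylase complex, KIAA1671, PXN, SLC35D2, TOLLIP, NPTN-IT1, H2BC21, CBLB, ING4, TK2 and INIP, with pair differences from 0.78 to 1.11. CBLB, a ubiquitin ligase that restrains antigen receptor signalling, went from 146.3 to 419.5 and from 197.6 to 329.0. TOLLIP, an adaptor that dampens Toll-like and interleukin 1 receptor signals, went from 247.9 to 477.4 and from 76.1 to 134.4. None of these 12 passed the adjusted threshold, and the probe sets of ING4 disagreed in JVM-2, from -0.526 to 0.725. Those of TOLLIP and INIP also differed in sign in JVM-2, from -0.289 to 0.794 and from -0.204 to 0.89.

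Reporter genes of NF-kB were mostly lower in the pair. Of 18 named reporters 16 were tested, of which 15 were lower in GRANTA-519, 14 in JVM-2 and 13 in both, and none passed the adjusted threshold. Over all 12314 genes tested, 6766 were lower in GRANTA-519, 5976 in JVM-2 and 3578 in both, and 3120 were higher in both. The promoters of 6 named genes, 4 of them reporters, hold a match to the 10-base kB consensus, the sequence that NF-kB dimers bind, and are shown to let the sites be set beside the values. Each line gives the 250 bases before the gene's start, 5' to 3' on the gene's strand, from RefSeq (GRCh38.p14), with kB matches in capitals.
CXCL10, chr4:76023498-76023747, strand -: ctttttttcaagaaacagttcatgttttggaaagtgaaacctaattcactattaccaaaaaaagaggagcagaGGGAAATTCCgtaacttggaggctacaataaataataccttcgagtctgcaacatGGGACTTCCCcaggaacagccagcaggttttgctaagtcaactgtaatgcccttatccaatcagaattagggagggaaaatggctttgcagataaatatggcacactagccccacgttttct
VCAM1, chr1:100719492-100719741, strand +: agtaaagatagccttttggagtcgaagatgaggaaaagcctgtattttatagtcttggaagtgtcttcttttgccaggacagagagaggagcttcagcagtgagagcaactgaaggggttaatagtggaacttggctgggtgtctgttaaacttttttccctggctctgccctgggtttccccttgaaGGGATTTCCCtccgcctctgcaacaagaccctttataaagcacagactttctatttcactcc
NFKBIA, chr14:35404750-35404999, strand -: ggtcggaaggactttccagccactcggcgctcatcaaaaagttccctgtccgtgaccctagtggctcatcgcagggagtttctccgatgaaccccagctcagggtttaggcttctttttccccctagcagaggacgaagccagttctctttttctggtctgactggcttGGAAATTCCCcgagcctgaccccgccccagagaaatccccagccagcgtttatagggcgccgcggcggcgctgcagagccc
CCL22, chr16:57358533-57358782, strand +: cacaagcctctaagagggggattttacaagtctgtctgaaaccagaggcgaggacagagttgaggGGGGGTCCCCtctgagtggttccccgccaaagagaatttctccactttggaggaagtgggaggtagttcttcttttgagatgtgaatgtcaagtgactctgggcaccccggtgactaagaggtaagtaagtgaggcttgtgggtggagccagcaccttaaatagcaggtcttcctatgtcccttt
TNFAIP3, chr6:137867009-137867258, strand +: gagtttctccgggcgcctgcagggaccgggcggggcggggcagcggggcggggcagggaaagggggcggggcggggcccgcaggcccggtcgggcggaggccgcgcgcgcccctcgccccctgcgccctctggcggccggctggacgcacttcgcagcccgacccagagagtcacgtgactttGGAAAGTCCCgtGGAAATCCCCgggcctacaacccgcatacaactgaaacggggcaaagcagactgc
DOK4, chr16:57487323-57487572, strand -: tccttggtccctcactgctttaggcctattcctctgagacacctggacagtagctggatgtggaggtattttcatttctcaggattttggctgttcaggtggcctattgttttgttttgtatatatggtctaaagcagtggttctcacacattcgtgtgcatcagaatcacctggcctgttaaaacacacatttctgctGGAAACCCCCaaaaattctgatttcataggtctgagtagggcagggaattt
CXCL10 holds 2 matches, at -177 and -122 from its start, and TNFAIP3 holds 2, at -67 and -55. VCAM1 holds 1 at -62, NFKBIA 1 at -81, CCL22 1 at -185 and DOK4 1 at -51. Over windows of 250 bases before to 50 bases after the start, on either strand, the consensus was found in 5.72% of 27305 promoters and in 6.61% of the 10057 genes tested that had a window. It was found in 4 of 11 reporters with a window, in 1 of 9 of the 12 genes lower in the pair and in 0 of 10 of the 12 genes highest in it. A match describes letters in the window, not bound protein.

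The genes with these sites differed in size of response. CXCL10, a chemokine for activated T cells that carries kB sites at -177 and -122, went from 952.2 to 38.4 in GRANTA-519 and from 20.5 to 4.2 in JVM-2, where it was dim already with DMSO. Its log2 difference of -3.09 ± 1.04 (SE) had an adjusted p of 0.704. NFKBIA, which encodes IkB-alpha, went from 912.3 to 373.3 and from 933.8 to 493.3, a log2 difference of -1.10 ± 0.35 (SE). TNFAIP3, which encodes the ubiquitin editor A20, went from 1343.2 to 731.0 and from 1065.3 to 574.7, a log2 difference of -0.88 ± 0.47 (SE). For both feedback genes the lines lay close together with DMSO and with AFN700. CCL22, a chemokine that draws regulatory T cells, went from 1371.6 to 401.9 in GRANTA-519 but from 3136.0 to 2365.2 in JVM-2. DOK4 went from 55.4 to 23.4 and from 74.2 to 50.6, a log2 difference of -0.83 ± 0.33 (SE), limma adjusted p = 0.733.

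Costimulation and adhesion genes did not share a direction as a list: of 25 tested, 11 were lower in both lines and 7 higher in both, with medians of -0.48 in GRANTA-519 and 0.02 in JVM-2. The genes named here were lower in both, and none passed. TRAF1, an adaptor bound by LMP1, went from 256.0 to 25.7 in GRANTA-519 and from 672.8 to 398.9 in JVM-2. EBI3, a cytokine subunit first found as an EBV-induced gene, went from 652.3 to 84.3 and from 1282.9 to 736.4. ICAM1, an adhesion molecule for T-cell contact, went from 1091.9 to 351.2 and from 397.4 to 203.9. CD40 itself went from 905.2 to 320.8 and from 828.3 to 426.6, and the costimulatory ligand CD80 from 227.1 to 46.0 and from 983.4 to 566.7. The log2 differences over the pair ran from -1.22 ± 0.33 (SE) for CD40 to -1.96 ± 0.49 (SE) for TRAF1, with adjusted p values between 0.557 and 0.704. NFKB2, IRF4 and CCL4 did not share a direction between the lines: NFKB2 went from 248.1 to 168.3 in GRANTA-519 and from 195.9 to 239.8 in JVM-2.

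**Figure D3:**
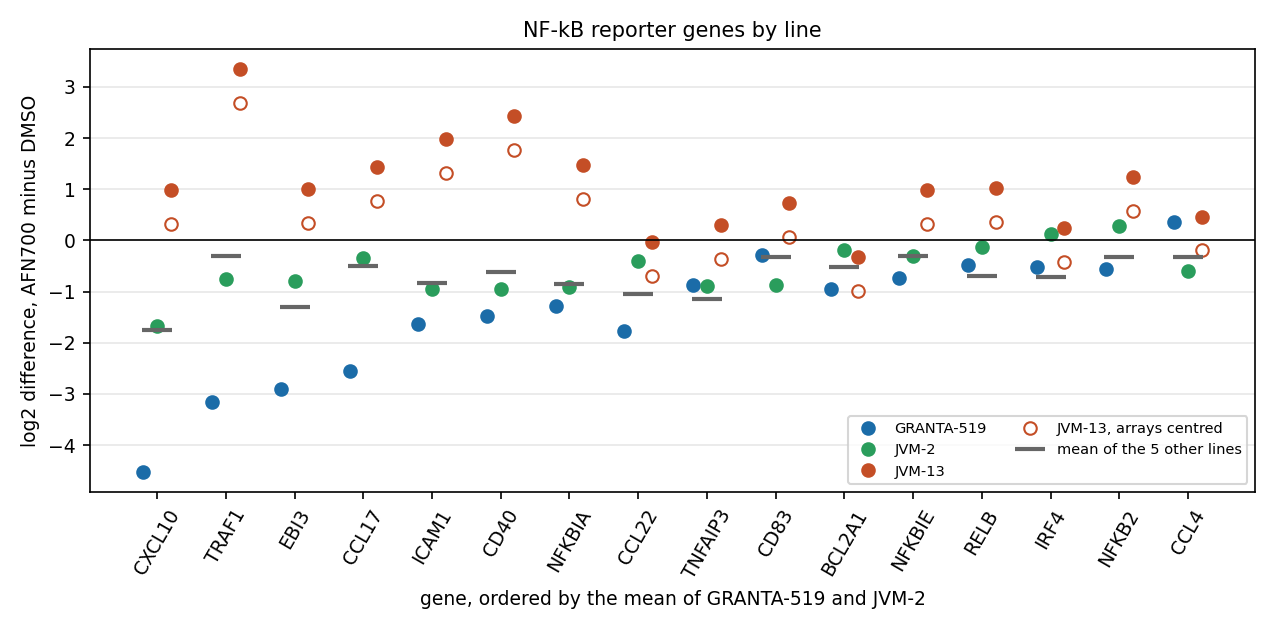
Log2 difference, AFN700 minus DMSO, of the 16 reporter genes in each EBV-positive line (filled points), in JVM-13 after centring each array on its median (open points), and as the mean of the 5 other lines (grey dashes). In the pair 13 of the 16 lie under 0 in both lines, while in JVM-13 14 of 16 lie above 0 as deposited and 11 of 16 after centring. Of all 12314 genes tested, 4770 lie under 0 in JVM-13 as deposited and 7822 after centring.

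Cytokine and chemokine genes were the gene list with the lowest median in the pair. Of 19 tested genes, 15 were lower in both lines and 2 higher in both. Their medians were -1.40 in GRANTA-519 and -0.41 in JVM-2, against -0.05 and 0.01 over all genes. The median of the mean difference was -0.89 over the pair and -0.42 over the 5 other lines. IL12B, the p40 subunit of interleukin 12, went from 926.8 to 278.9 in JVM-2 and from 17.1 to 2.7 in GRANTA-519. IL32 went from 730.0 to 142.8 in GRANTA-519 and from 48.6 to 29.3 in JVM-2, and LTA, lymphotoxin alpha, from 188.1 to 52.2 and from 841.6 to 495.7. Of 29 host genes known to be induced by EBV or its LMP1 and EBNA2 proteins, 16 were lower in both lines and 3 higher in both. Their medians were -0.65 and -0.23. For these genes the median of the mean difference over the 5 other lines, -0.31, was close to that over the pair, -0.33. Of 16 feedback regulators of NF-kB, 9 were lower in both lines and 1 higher. Their medians were -0.39 and -0.35, so here JVM-2 was about as low as GRANTA-519. The median of the mean difference was -0.32 over the pair and -0.03 over the 5 other lines. No gene of these 3 lists passed the adjusted threshold, and the 12 TNF receptor family genes held 1 that did, TNFRSF9. The 11 IKK complex and upstream kinase genes stayed near the median of all genes, at 0.07 and 0.00.

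Cell division genes separated the lines. All 30 mitosis genes were lower in GRANTA-519, with a median of -0.83, and 26 of 30 were lower in both lines, but the JVM-2 median was -0.12. All 33 replication and E2F genes were lower in GRANTA-519, with a median of -0.85, against a JVM-2 median of -0.01. Of all 12314 genes tested, 6766 were lower in GRANTA-519, 5976 in JVM-2 and 3578 in both. With arrays centred, 29 of the 30 mitosis genes, all 33 replication genes and 5466 of all genes were lower in GRANTA-519. CDC45, a replicative helicase subunit, went from 539.4 to 178.0 in GRANTA-519 and from 584.9 to 532.8 in JVM-2, and the mitotic kinase gene CDK1 from 1721.6 to 888.9 and from 1766.7 to 1520.5. Antigen presentation showed the same split, with MHC class II medians of -0.48 in GRANTA-519 and 0.07 in JVM-2. HLA-DOA, which modulates peptide loading, went from 1401.8 to 442.0 in GRANTA-519 and from 955.6 to 990.7 in JVM-2. No gene of these 3 lists passed the adjusted threshold, and the difference between the lines has no test with 1 pair of arrays each. In bulk RNA fewer dividing cells and less RNA per cell cannot be told apart. Interferon-stimulated genes had medians of -0.29 and -0.10, and 22 immediate early genes 0.03 and 0.05.

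The comparison with the 5 other lines passed the adjusted threshold at 1 gene (0.00812%), TNFAIP6, with a log2 difference of differences of -3.42 ± 0.45 (SE), limma adjusted p = 0.0398. In the 5 other lines TNFAIP6 was between 0.2 and 4.6 on every array, at the low end of the scale already with DMSO. It had no room to fall there, so this call shows where the gene was detected and not a different response of the other lines. Before adjustment 644 genes had a p under 0.05, and 535 of these were lower in the pair. After centring the arrays no gene passed, with a smallest adjusted p of 0.0592 in limma, and TNFAIP6 no longer did, nor did it with a pseudocount of 1. No gene passed when REC-1, SP49, HBL-2, GRANTA-519, Z-138 or JVM-2 was left out, with smallest adjusted p values of 0.084 to 0.191, and 1 gene passed without Maver-1 or without JVM-13. The next by p were C3, TNFRSF9, IL1R2, CDK18, IL12B, SPIC and RASSF4, none of which passed. C3 lay between 0.6 and 4.7 on all 10 arrays of the other lines. RASSF4 went from 414.1 to 70.2 in GRANTA-519 and from 693.8 to 394.6 in JVM-2, and its mean difference in the other lines was 0.58. In the 5 other lines the mean was under 0 for 16 of 16 reporters, but 1 of 16 was lower in all 5 lines. NFKBIA differed by -1.31 in REC-1, -1.63 in SP49 and -1.25 in HBL-2, against -0.11 in Z-138 and 0.01 in Maver-1.

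JVM-13 moved more than either line of the pair. Every direction given for JVM-13 follows the labels of its DMSO and AFN700 arrays and would turn if those 2 arrays had been exchanged, which was not tested. As deposited, 3164 genes (25.7%) were at least 2-fold higher with AFN700 and 865 (7.02%) at least 2-fold lower, with a median of 0.27 over all genes. With each array centred on its median the counts were 1428 higher (11.6%) and 3066 lower (24.9%), with a median of -0.39, and after quantile normalization 2978 and 799, with a median of 0.28. The direction in which most genes lay turned with centring but not with quantile normalization. The low median of the DMSO array over the genes tested and the change in the actin 3'/5' ratio, from 2.01 to 3.43, move with these counts. Their part in the counts was not tested. With 1 pair of arrays there is no test of JVM-13 alone.

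**Figure D4:**
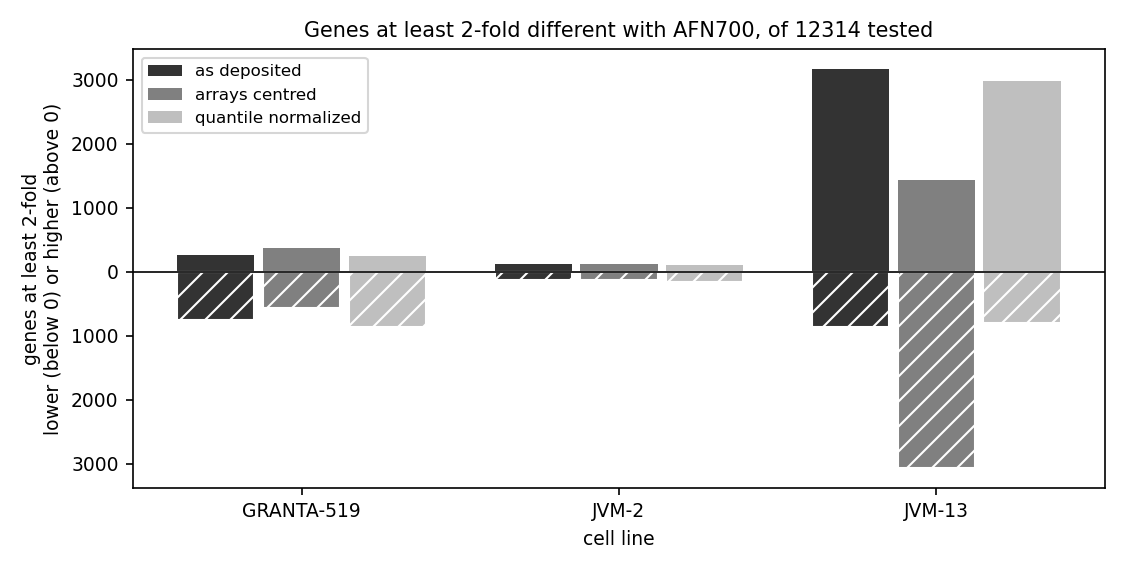
Number of genes, of 12314 tested, at least 2-fold higher (bars above 0) or lower (hatched bars below 0) with AFN700 in each EBV-positive line, as deposited, with arrays centred on their medians, and quantile normalized. JVM-13 has 3164 higher and 865 lower genes as deposited and 1428 and 3066 after centring.

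The genes that were lower in the pair were mostly higher on the array labelled AFN700 in JVM-13, as deposited, centred and quantile normalized. Of the 12 genes at least 2-fold lower in GRANTA-519 and JVM-2, 8 were at least 2-fold higher in JVM-13 as deposited, 7 after centring and 9 after quantile normalization. At least 2-fold lower were 0, 1 and 0. The background over the 8706 genes of the same brightness was 27.1% higher as deposited, 12.6% after centring and 23.2% after quantile normalization. VCAM1 went from 349.6 to 869.5 in JVM-13, TUBB2A from 193.9 to 1170.9, OXTR from 63.7 to 500.5, VDR from 83.0 to 366.1 and COL1A1 from 32.1 to 225.7. CLIC2, at 617.8 and 394.0, was lower with AFN700 in JVM-13 as well. FABP6, at 21.8 and 19.5, and C3, at 8.5 and 7.2, were dim there. Their log2 differences were -0.139 and -0.168 as deposited, -0.801 and -0.831 after centring, and 0.04 and 0.057 after quantile normalization. At a cut of 1.5-fold, 77 genes were lower in the pair, and 53 of them were higher by that much in JVM-13 as deposited and 43 after centring, against backgrounds of 40.4% and 21%. RAB38, higher in the pair, went from 1361.0 to 247.1, and H2BC21 from 2072.6 to 482.4.

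The NF-kB reporters in JVM-13 followed the same pattern. TRAF1 went from 116.7 to 1214.6, CD40 from 144.3 to 792.6, ICAM1 from 196.5 to 786.3, and NFKBIA from 466.9 to 1295.6. CD80, which is not among the reporters, went from 94.9 to 854.7. On the JVM-13 DMSO array all 5 genes lay under their level on the JVM-2 DMSO array, and on its AFN700 array TRAF1, ICAM1 and NFKBIA lay above that level. The log2 differences of CCL17, NFKB2, RELB, EBI3, NFKBIE and CXCL10 were between 0.99 and 1.43, and the probe sets of NFKB2 disagreed. Of these, CXCL10, at 3.0 and 9.2, lay near the floor, and RELB, at 19.2 and 42.4, was dim. Smaller differences were seen in others: TNFAIP3 went from 1183.7 to 1455.3, CCL22 from 3263.6 to 3192.8 and the survival gene BCL2A1 from 3837.3 to 3056.1. As deposited 2 of 16 reporters were lower with AFN700 in JVM-13, 5 after centring and 1 after quantile normalization. Over all 12314 genes tested, 4770 were lower in JVM-13 as deposited and 7822 after centring. The test of JVM-13 minus the pair called 3461 of 12314 genes (28.1%), 2620 higher (21.3%) and 841 lower (6.83%). With arrays centred it called 1198 higher (9.73%) and 2888 lower (23.5%). It assumes that the 1 JVM-13 difference varies like those of the other lines. That 1 line has 1 array per treatment and a DMSO array with a low median over the genes tested, so these calls are no test of JVM-13 over replicates. Without GRANTA-519 it called 1798 genes, and without the cell line block 28. It called 7 of the 16 reporters, all higher in JVM-13, and 4 after centring. They were NFKBIA, NFKBIE, ICAM1, TRAF1, CCL17, CD83 and CD40, with TRAF1 at 5.30 (limma adjusted p = 0.00088) and CD40 at 3.65 (adjusted p = 0.000843).

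The list counts that follow stand against 21.3% of all genes called higher and 6.83% lower as deposited, and 9.73% and 23.5% after centring, with medians over all genes of 0.27 and -0.39. The replication and E2F list had a median of 1.06 as deposited and 0.39 after centring, and the difference test called 26 of its 33 genes higher than in the pair and 0 lower, with 14 and 0 after centring. CDC45 went from 102.0 to 728.1 and BRCA1, a DNA repair gene, from 37.8 to 527.3. The mitosis list had medians of 0.83 and 0.16, with 19 of 30 genes called higher and 0 lower, and 7 and 1 after centring. CCNB1, the mitotic cyclin, went from 385.7 to 2052.7. Costimulation and adhesion genes had medians of 0.84 and 0.18, with 12 of 25 called higher and 2 lower, and 7 and 2 after centring. Interferon-stimulated genes had medians of 1.01 and 0.34, with 11 of 29 called higher and 0 lower, and 2 and 1 after centring, a share of higher calls under that of all genes. The immediate early list had medians of -0.60 and -1.26 and 1 of 22 called higher against 4 lower, and 0 and 7 after centring.

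**Figure D5:**
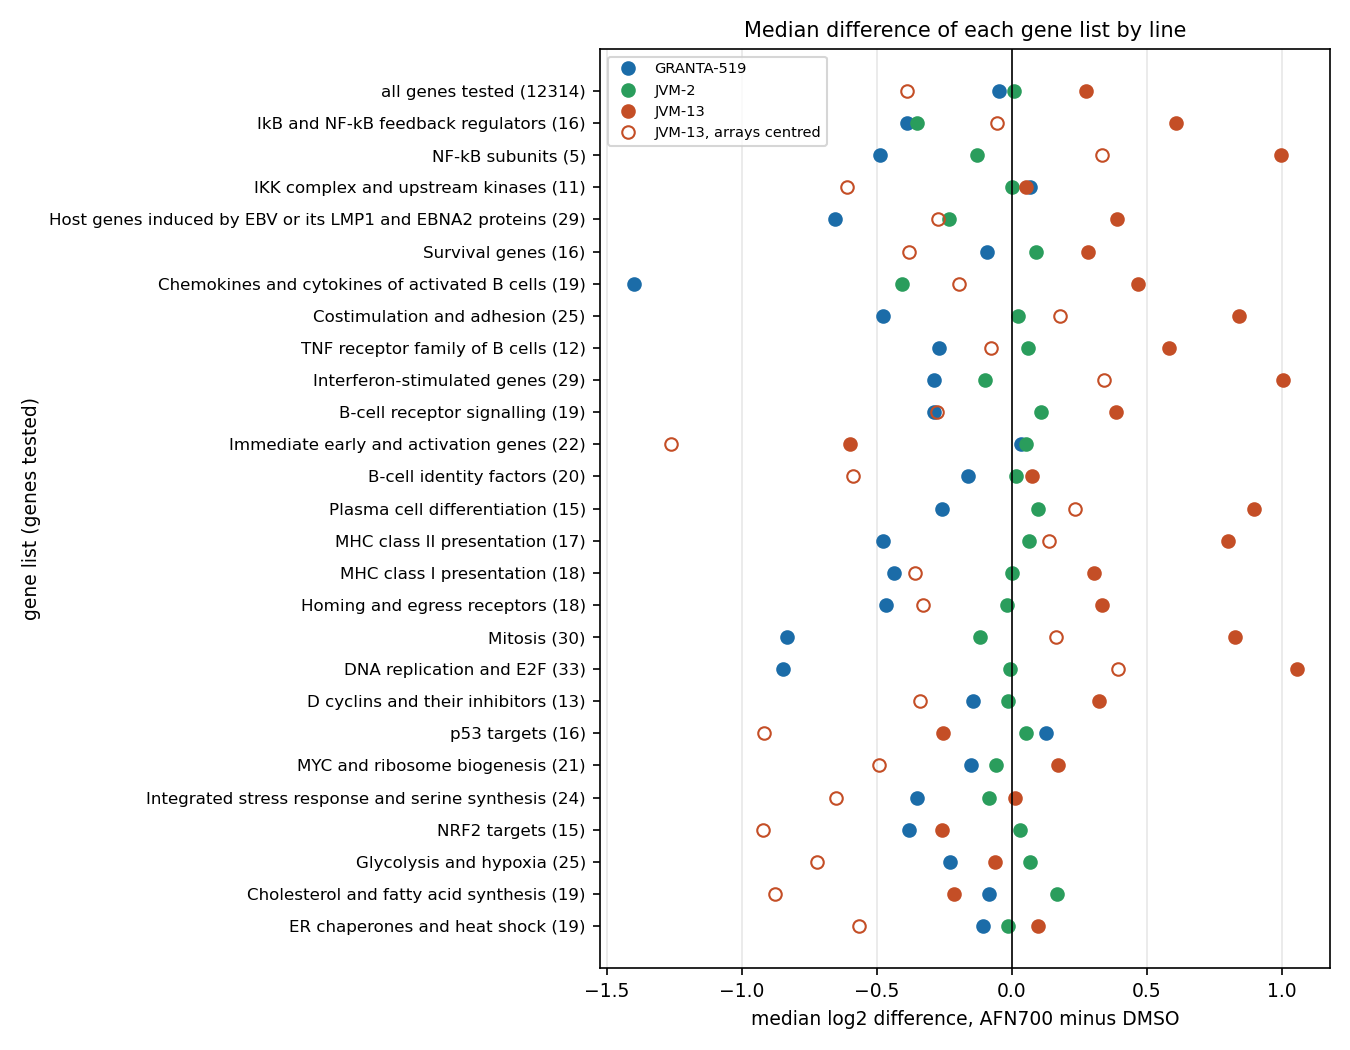
Median log2 difference, AFN700 minus DMSO, of each gene list (number of genes tested in brackets) in the 3 EBV-positive lines as deposited (filled points) and in JVM-13 after centring each array (open points). Chemokines and cytokines lie lowest in GRANTA-519 and JVM-2 at -1.40 and -0.41, and replication genes lie highest in JVM-13 at 1.06.

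The genes that moved most in JVM-13 under all 3 scalings were spread over many functions. Furthest up were RRP7A, a ribosome assembly factor, from 3.3 to 163.5, ZNF804A from 3.8 to 172.2, the mitochondrial carrier SFXN2 from 34.1 to 866.9, the potassium channel KCNC4 from 2.7 to 132.2, PIGO from 0.6 to 71.7 and TAP2, a subunit of the MHC class I peptide transporter, from 30.2 to 613.8. In JVM-2 the same genes lay between 81.9 and 1014.2 with DMSO, each above its level on the JVM-13 DMSO array. Furthest down were the kinase gene RPS6KA5, from 1674.5 to 90.8, the chromatin remodeller CHD2, from 2176.3 to 125.8, and the autophagy gene ATG7, from 704.2 to 54.0. In JVM-2 these 3 lay between 29.2 and 203.1 with DMSO. The probe sets of RPS6KA5 and ATG7 disagreed in JVM-13, running from -4.16 to 1.04 and from -3.63 to 2.65 on the log2 scale, and the values given are of the probe set with the highest mean.

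Over all 3 EBV-positive lines no gene passed (0 of 12314, 0.0%), with a smallest limma adjusted p of 0.773. Before adjustment 634 genes had a p under 0.05, and 463 of these were higher with AFN700. Of all genes, 965 were lower and 1466 higher in all 3 lines as deposited. Among the brighter genes, those lower in all 3 lines as deposited and after centring were led by MAN1B1-DT, ABTB2, CLIC2, SERPINB8, PNPLA2, MAST2 and FSCN1. FSCN1, the actin bundler fascin that EBV-infected B cells are known to express, went from 462.7 to 106.1 in GRANTA-519, from 960.3 to 663.0 in JVM-2 and from 1009.8 to 537.0 in JVM-13. ABTB2 went from 106.5 to 47.7, from 89.7 to 52.1 and from 308.4 to 195.2. These values share a direction in all 3 lines, with an adjusted p of 0.773 for both genes. Higher in all 3 were NR2C1, RGP1, RSPH3, ZGRF1 and OTUD7B among others. OTUD7B, a deubiquitinase that restrains the non-canonical NF-kB pathway, went from 169.0 to 361.3, from 76.9 to 106.6 and from 33.5 to 86.9. Probe sets disagreed in JVM-2 for NR2C1 (log2 differences of -0.507 to 0.583), RSPH3 (-0.542 to 0.527) and ZGRF1 (-0.362 to 0.648). They did so too for PNPLA2 (-0.693 to 0.909), and for NR2C1 in JVM-13 (-1.906 to 0.743). The directions of these 4 genes are those of the probe set with the highest mean.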

How the data were processed

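Total RNA of 8 B-cell lines, each with DMSO and AFN700, was measured on 16 Affymetrix arrays. The deposited values are linear intensity values, scaled per array. The submitters' processing notes name MAS5 as the authors' tool, with a version not given in the sources used here. Of 54675 probe sets, 41091 named 1 gene, 1801 named several and 11721 none, and 41037 were matched to RefSeq symbols. A gene was represented by the probe set with the highest mean. Of 19775 genes, 12314 exceeded the 60th percentile of the array on 2 or more arrays and were tested. Fold changes are on the log2(intensity + 3.3) scale, which understates the change of dim genes.

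Differences were fitted with limma 3.58.1 in R 4.3.3 (lmFit and eBayes with a trend, Benjamini-Hochberg adjustment), with the cell line as a block, because both arrays of a line come from that line, and with separate AFN700 terms for GRANTA-519 with JVM-2, for JVM-13 and for the 5 other lines. The script was tested on simulated data. The number of arrays limits the precision.

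Genes were named by rank: 12 per direction in GRANTA-519 and JVM-2, 10 per direction over the 3 lines and in JVM-13 (signs the same under each scaling used), 8 per direction in each difference test, the reporters, and up to 4 per gene list by smallest p, with an intensity of at least 50 where ranked by size. The members and lists were chosen with earlier results of these data known. Alternatives varied the pseudocount, scaling, filter, probe set rule, trend, block and lines included. EBV genes are not analysed here.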

Additional observations from a re-analysis of the deposited data

Results flagged for a closer look

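In 21 groups of values, 3 had a sample far from the others, and chance gives about 1 in 20. The DMSO array of JVM-13 had the lowest median level over the genes tested, 7.245, though not over all probe sets. The AFN700 and DMSO arrays of JVM-13 had the lowest correlation of the 8 lines, 0.924. The actin 3'/5' ratio of the Maver-1 DMSO array was 10.326, and the AFN700 arrays of Maver-1 and HBL-2 had higher ratios, 18.832 and 16.678. Both lines are among the 5 others that share in the estimate of spread. The response of TNFAIP6 in GRANTA-519 and JVM-2 differed from that in the 5 other lines by -3.423 on the log2 scale, but it was at the low end of the scale in those lines already with DMSO.

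The directions in JVM-13 rest on the labels of its 2 arrays, and an exchange of them was not tested. In the limma test of JVM-13 minus GRANTA-519 and JVM-2, 7 of 16 reporter genes differed, all higher in JVM-13, on the log2 scale: NFKBIA by 2.565, NFKBIE by 1.511, ICAM1 by 3.272, TRAF1 by 5.298, CCL17 by 2.879, CD83 by 1.307 and CD40 by 3.65. Over all 12314 genes tested the same test called 21.3% higher and 6.83% lower. The part of the low median of the JVM-13 DMSO array in the reporter differences was not tested beyond centring. After centring 4 of 16 reporters passed, against 9.73% of all genes called higher and 23.5% lower.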

How the results depend on the processing

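For GRANTA-519 and JVM-2, 2 genes passed. The count was 0 with a pseudocount of 1 and with no replicate block (no cell line block). It was also 0 with a filter on 4 arrays, which left both TNFAIP6 and TNFRSF9 untested. With quantile normalization, centred arrays, the mean of all probe sets or only those 2 lines it was 1. It was also 1 without HBL-2 and Maver-1 together (chosen after seeing the data). A pseudocount of 16 gave 5 and no trend gave 4. Leaving out 1 line gave 0 (without GRANTA-519) to 7 (without JVM-2), and 1 without REC-1, SP49, Z-138 or Maver-1. Over the 3 lines, leaving out 1 line gave 0 to 2 genes, the latter without JVM-13. For the difference from the 5 other lines, 1 gene became 0 with a pseudocount of 1, centred arrays, a filter on 4 arrays, the mean of all probe sets, no cell line block, only the 3 other insensitive lines, or without HBL-2 and Maver-1, 2 with a pseudocount of 16, 4 with no trend, and 0 to 1 without 1 line. For JVM-13 minus the pair, 3461 became 28 with no cell line block and 1798 to 4649 without 1 line. Counts of at least 2-fold differences moved as follows. GRANTA-519 had 469 lower and 117 higher with a pseudocount of 16, 459 lower with mean probe sets and 632 higher with no filter. JVM-2 had 236 lower and 262 higher with a pseudocount of 1, 28 and 6 with 16, 345 and 458 with no filter, 71 and 70 with mean probe sets, and 74 higher with a filter on 4 arrays. JVM-13 had 3066 lower and 1428 higher with centred arrays and 1474 lower with no filter. The pair difference of 7 genes changed sign when 1 line of the pair was left out, which leaves the other line alone. NFKB2 (-0.132 for the pair) ranged from -0.551 to 0.287, IRF4 (-0.195) from -0.514 to 0.123, with 0.023 for mean probe sets, HLA-DOA (-0.803) from -1.658 to 0.052, MS4A1 (-0.056) from -0.16 to 0.048 and CCND1 (-0.158) from -0.323 to 0.007, each above 0 without GRANTA-519. CCL4 (-0.114) ranged from -0.589 to 0.361, above 0 without JVM-2, and CD5 (0.532), dim on all 6 arrays, from -0.1 to 1.163. Except where a setting tested fewer genes or lines, the cause was not tested. Dim genes are limited by signal over background.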
